A study of Mus musculus with 15 samples.

Results

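Hypoxic mouse melanocytes that had received Si1, one of the study's small interfering RNAs (siRNAs) against Hif1a, were compared with hypoxic cells of the group labelled negative control (NC). The comparison took the 3 arrays whose titles name Si1 and the 3 whose titles name NC, 6 of the 15 arrays of the series. All 15 came from melan-Ink4a-Arf-1 (melan-a), an immortalized line of pigment cells from mice of the strain Cdkn2a tm1RDp/tm1RDp, which lack the Cdkn2a tumour suppressor locus, so every group carries that loss. Cells grew in medium with fetal bovine serum, a phorbol ester and cholera toxin, which drive the growth of cultured melanocytes. Both groups spent 24 h in a chamber at 1% oxygen, 5% CO2 and otherwise nitrogen, and Si1 was transfected 24 h before that. The labels do not say what the negative control received. The other arrays, 3 to a group, were a second siRNA (Si6, hypoxic), a hypoxia control (hypoxic, with nothing further stated) and normoxia (about 21% oxygen, 10% CO2). As a model, the groups are limited to 1 cell line. The series describes the arrays as biological triplicates without saying what separated the cultures, so p-values measure only the spread between these samples.

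Hif1a encodes the oxygen-regulated alpha subunit of hypoxia-inducible factor 1 (HIF-1). With oxygen present, prolyl hydroxylases mark the protein for destruction through the von Hippel-Lindau ligase. In low oxygen it persists, pairs with Arnt and activates genes that carry a short core motif, among them genes of glycolysis, of mitochondrial clearance and of blood vessel growth. In skin, melanocytes sit in a layer with little oxygen, and HIF-1 also works in pigment cell tumours. Si1 against NC bears on which transcripts of hypoxic melanocytes change when Hif1a is lowered. From Si1 alone and a control of unstated content, lowered Hif1a and other effects of Si1 cannot be told apart.

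Values are the deposited log2 values of Affymetrix arrays. The median of each array lay between 6.52 and 6.58 in Si1 and between 6.59 and 6.61 in NC. Arrays of the same group correlated at 0.9939 to 0.9957 over all 41345 probe sets, and arrays of different groups at 0.9829 to 0.9862. Of 10 melanocyte markers, the mean level over all 15 arrays ran from 8.47 to 13.06. Log2 levels of different probe sets cannot be ranked against each other and no detection calls were used, so no gene is called absent. In bulk samples such as these, fewer cells of a type and less RNA per cell cannot be told apart.

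The target itself was low on every Si1 array. Hif1a stood at 8.61, 8.75 and 8.59 on the Si1 arrays and at 10.68, 10.66 and 10.56 on the NC arrays. The groups did not overlap, and the log2 fold change was -1.98 ± 0.06 (SE, n = 3 arrays a group, limma adjusted p 1.7e-12), which leaves 25.3% of the NC level on the linear scale. A second, dimmer probe set for Hif1a differed by -0.01 ± 0.07, and the mean of both probe sets gave a difference of -1.0. On the Si6 arrays Hif1a was at 8.90, 8.91 and 8.98, and Si1 lay below Si6 by a log2 difference of -0.28 ± 0.06 (adjusted p 0.001). The hypoxia control stood at 10.63, 10.54 and 10.59 and normoxia at 10.36, 10.30 and 10.35.

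Across 22180 genes, 4472 (20.2%) were higher in Si1 and 3278 (14.8%) were lower at an adjusted p under 0.05, the call used throughout. Most of these differences were small, since 5113 of the 7750 called genes differed by less than 0.5 on the log2 scale. Of the rises, 282 (1.27% of all genes) reached 2-fold, as did 237 of the falls (1.07%). Under quantile normalization these were 227 rises and 285 falls, so which direction holds more depends on the scaling. Past 4-fold, 28 genes were lower and 16 higher. The arrays of Si1 and NC did not overlap for 9630 genes (43.4%), nor for any of the 519 genes past 2-fold. Over all genes the standard error had a median of 0.076.

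**Figure D1:**
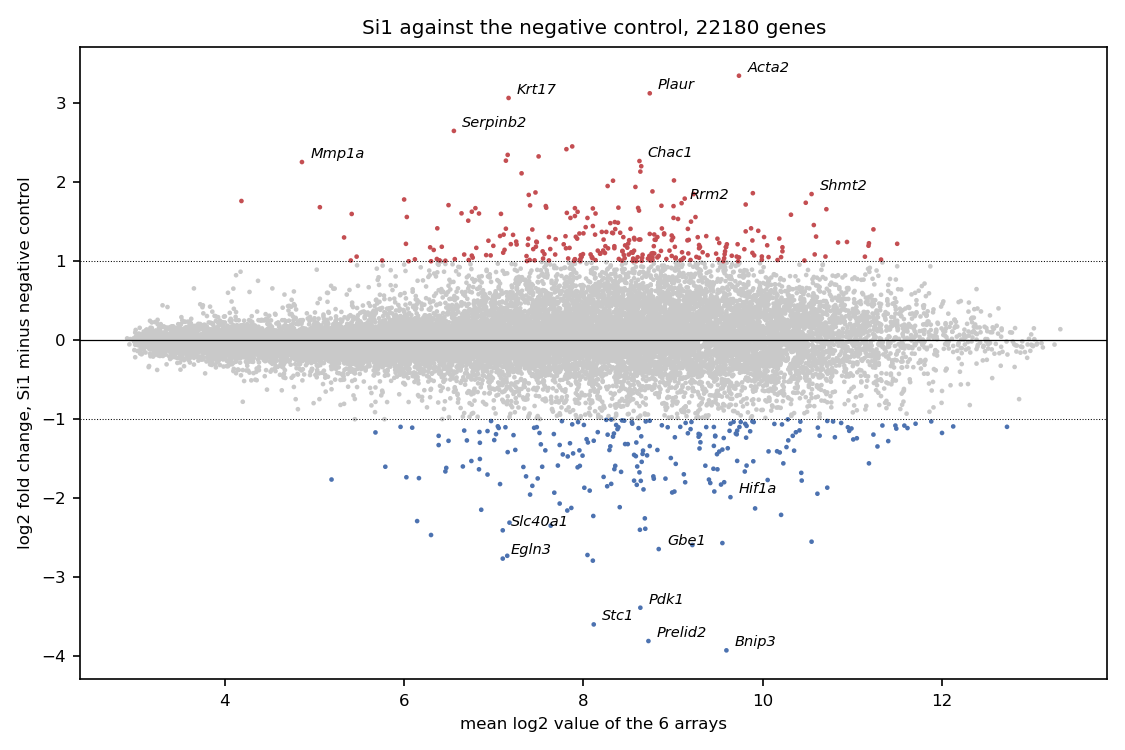
Log2 fold change of Si1 minus negative control (vertical axis) against the mean deposited log2 value of the 6 arrays (horizontal axis), each point a gene. Red points are the 282 rises and blue points the 237 falls of 2-fold or more, and dotted lines mark 2-fold; the lowest point, Bnip3, lies at -3.92 and the highest, Acta2, at 3.35.

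Many of the largest falls were in known genes of the hypoxic response, with roles in mitochondria and in the use of glucose. Bnip3, a mitochondrial protein that tags mitochondria for removal by autophagy, fell furthest. Its log2 values were 7.63, 7.49 and 7.77 in Si1 and 11.56, 11.56 and 11.55 in NC. Every Si1 array lay far below every NC array, and the log2 fold change was -3.92 ± 0.07 (adjusted p 1.9e-14), or 6.59% of the NC level. Prelid2, a relative of proteins that carry lipids inside mitochondria, was at 6.83, 6.83 and 6.80 against 10.74, 10.54 and 10.60. It fell nearly as far (-3.81 ± 0.10). Stc1 encodes stanniocalcin, a secreted glycoprotein that acts on calcium and phosphate handling. It was at 6.21, 6.39 and 6.34 in Si1 and at 10.02, 9.87 and 9.85 in NC, a log2 fold change of -3.60 ± 0.09. Pdk1, the kinase that shuts pyruvate out of the citrate cycle by inhibiting pyruvate dehydrogenase, was at 7.08, 6.99 and 6.76 against 10.41, 10.31 and 10.26 (-3.38 ± 0.09). A second, much dimmer Pdk1 probe set did not follow (-0.13 ± 0.06). Egln3, a prolyl hydroxylase that turns over HIF and is itself a HIF target, was at 5.52, 5.75 and 5.87 against 8.55, 8.76 and 8.13 and had the widest spread of these genes (-2.76 ± 0.15).

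**Figure D2:**
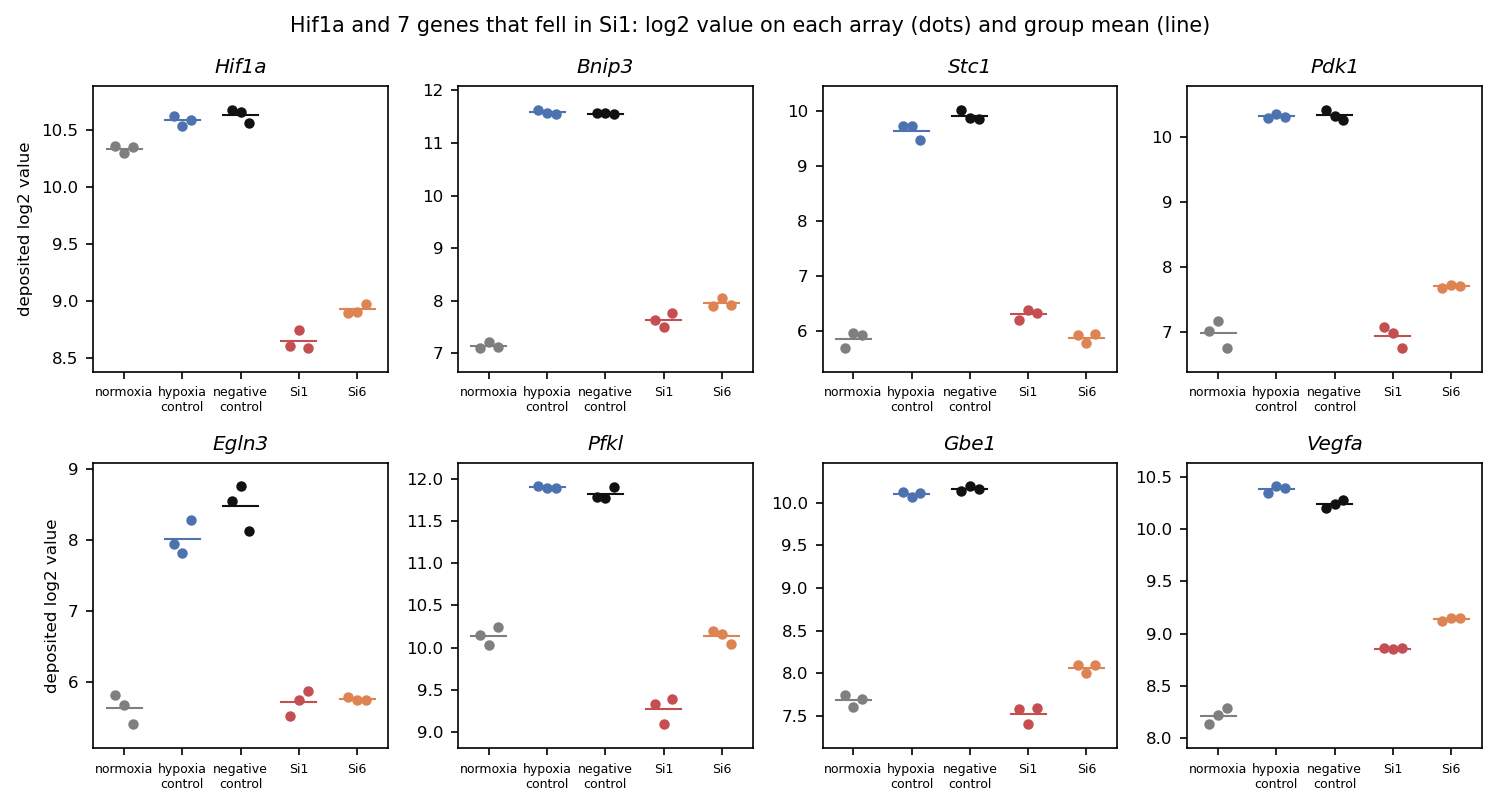
Deposited log2 value (vertical axis) of Hif1a and 7 genes that fell in Si1, on each of the 3 arrays of 5 groups (dots) with the group mean (line). On all 8 genes the 3 Si1 arrays sit below the 3 NC and the 3 hypoxia control arrays; for Bnip3 they sit at 7.63, 7.49 and 7.77 against 11.56, 11.56 and 11.55 in NC.

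The list of hypoxia adaptation and mitophagy genes moved down as a group. Of its 30 measured members, 22 were lower, 4 were higher and 4 were not called, with a median log2 fold change of -0.84 beside -0.01 for all genes. Vldlr, a lipoprotein receptor, had a log2 fold change of -2.72, and Ak4, a mitochondrial adenylate kinase, of -2.59. The inner-membrane proteins Fam162a (-2.21) and Higd1a (-1.72) fell as well, as did Ero1a (-1.09), an oxidase that forms disulphide bonds in the endoplasmic reticulum. Smaller falls were seen for Ndrg1 (-1.03), a stress-response gene, and Hilpda (-0.46), a lipid droplet protein that inhibits lipolysis. Ddit4, a brake on the growth kinase complex mTORC1, fell only slightly (-0.24 ± 0.09, adjusted p 0.045). The 4 that rose were Trib3 (0.67), a pseudokinase induced by amino acid stress, Rbpj (0.40), the DNA-binding partner of Notch, Rab20 (0.21) and Pfkfb3 (0.21). Wsb1, Bhlhe41, Cox4i2 and Ndufa4l2 were not called. Cox4i2 and Ndufa4l2, which are HIF targets in other tissues, had log2 values of 6.79, 6.91 and 6.78 and 5.49, 5.78 and 5.35 in Si1.

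RefSeq promoter windows, each running from 250 bases before to 50 after a transcription start (assembly GRCm38.p6), were searched for the HIF core motif, ACGTG or GCGTG on either strand. Among the 15 genes with the largest falls, 9 had a window, and the 5 below held the motif. The windows of Col28a1, Vldlr, Gbe1 and Pcsk6 held none. Counted by window, 8 of 14 (57.1%) held it. The 5 genes are shown because they are the strongest losses with the letters that HIF-1 is known to bind. Capitals mark the motif as it reads on the gene's strand, so a match on the opposite strand appears as its reverse complement, and overlapping matches run together.
Bnip3, chr7:138909457-138909756, minus strand: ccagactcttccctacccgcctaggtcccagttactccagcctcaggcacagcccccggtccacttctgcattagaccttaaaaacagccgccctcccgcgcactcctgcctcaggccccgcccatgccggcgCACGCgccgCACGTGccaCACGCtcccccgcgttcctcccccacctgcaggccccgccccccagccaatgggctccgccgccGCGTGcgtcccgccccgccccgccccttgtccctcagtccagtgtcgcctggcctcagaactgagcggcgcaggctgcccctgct
Pdk1, chr2:71872974-71873273, plus strand: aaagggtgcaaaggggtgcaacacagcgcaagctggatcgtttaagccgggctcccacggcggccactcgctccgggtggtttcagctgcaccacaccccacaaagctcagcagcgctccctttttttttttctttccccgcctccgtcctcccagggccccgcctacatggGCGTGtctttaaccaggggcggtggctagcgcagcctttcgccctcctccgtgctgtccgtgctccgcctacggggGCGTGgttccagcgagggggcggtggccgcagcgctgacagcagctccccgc
Egln3, chr12:54203825-54204124, minus strand: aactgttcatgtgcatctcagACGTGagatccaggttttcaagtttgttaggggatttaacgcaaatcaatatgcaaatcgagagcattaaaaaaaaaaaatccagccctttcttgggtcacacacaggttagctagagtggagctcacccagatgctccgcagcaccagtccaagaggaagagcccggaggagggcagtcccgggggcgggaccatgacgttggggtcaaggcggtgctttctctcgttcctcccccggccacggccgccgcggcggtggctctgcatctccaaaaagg
Ak4, chr4:101419453-101419752, plus strand: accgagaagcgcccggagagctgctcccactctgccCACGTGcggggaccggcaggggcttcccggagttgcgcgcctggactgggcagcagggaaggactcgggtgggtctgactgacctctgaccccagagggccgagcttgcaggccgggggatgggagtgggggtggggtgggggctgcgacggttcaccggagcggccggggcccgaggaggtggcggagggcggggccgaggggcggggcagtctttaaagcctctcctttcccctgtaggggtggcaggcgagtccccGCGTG
Pfkl, chr10:78009758-78010057, minus strand: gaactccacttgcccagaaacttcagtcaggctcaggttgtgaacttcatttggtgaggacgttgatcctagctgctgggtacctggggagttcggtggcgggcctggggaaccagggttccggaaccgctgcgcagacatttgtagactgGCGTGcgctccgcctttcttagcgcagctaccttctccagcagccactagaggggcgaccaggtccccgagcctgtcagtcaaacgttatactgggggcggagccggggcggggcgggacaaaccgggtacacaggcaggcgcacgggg
The Bnip3 window held 5 matches, 2 of which share the run CACGTG. Where a gene had several windows (2 for Pdk1, 4 for Ak4), the one with most matches is shown. The motif is short and common: 50.1% of the 20611 windows of all measured genes held it, against 54.4% of windows of genes at least 2-fold lower and 64.3% of windows of genes at least 2-fold higher. Windows of the hypoxia adaptation list held it in 81.1% of cases. In lists read below where more genes rose than fell, it stood in 11 of 11 windows of the aminoacyl-tRNA synthetases. It also stood in 18 of 25 windows of the amino acid stress list and in 14 of 22 of the immediate early list. The contractile list held it in 10 of 18 windows and the plasminogen list in 3 of 7. A high share was thus not limited to genes that fell. Windows rich in CG pairs hold it more readily, and the median number of CG pairs was 13 over all genes, 16 for the lower, 19 for the higher and 26 for the hypoxia adaptation list. A match is a description of the letters and not a binding site.

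Genes of glucose uptake and glycolysis fell more often than they rose: 17 of 26 were lower and 6 higher, with a median of -0.53. The losses reached from glucose entry to lactate export. The transporters Slc2a3 (-1.41) and Slc2a1 (-0.79) fell, and so did Hk2, the hexokinase that traps glucose in the cell, at 8.56, 8.62 and 8.72 against 10.34, 10.24 and 10.20 (-1.63 ± 0.07). Pfkl, a subunit of phosphofructokinase, the main control point of the pathway, was at 9.33, 9.09 and 9.39 in Si1 and 11.78, 11.77 and 11.90 in NC (-2.55 ± 0.08). That is 17.1% of the NC level, and below the normoxic arrays as well (10.15, 10.03 and 10.25). Aldolase C (Aldoc, -2.13) showed the same order, with 8.75, 8.86 and 8.94 in Si1 and 10.13, 10.09 and 10.13 in normoxia. Enzymes of the lower pathway changed less: Tpi1 (-0.82), Pgk1 (-0.74), Ldha (-0.70) and Pkm (-0.56) fell, Pgam1 fell on both of its probe sets (-0.41 and -0.77), and Gapdh was not called (-0.03 ± 0.05). Members that rose were Eno3 (0.87) and Eno2 (0.80), which encode the muscle and neuronal enolases, Slc16a1 (0.48), Pfkfb4 (0.41), Ldhb (0.34) and Pfkfb3. Among pyruvate dehydrogenase kinases, Pdk2 (-0.97) and Pdk3 (-0.45) fell with Pdk1, while Pdk4 was not called (-0.07 ± 0.08) and stood at 0.38 against the hypoxia control.

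Glycogen and acid handling genes also fell more often than they rose. Of 12 glycogen genes, 8 were lower and 1 was higher (median -0.38). Gbe1, the branching enzyme that shapes glycogen, was at 7.58, 7.40 and 7.59 against 10.14, 10.19 and 10.16 (-2.64 ± 0.06), and Gys1, glycogen synthase, had a log2 fold change of -1.68. Ppp1r3c, which brings a phosphatase to glycogen, fell (-1.16), as did Pygl, a phosphorylase that breaks glycogen down (-0.69). Pgm2, a phosphoglucomutase, was the member that rose (0.57). Of 8 genes that export acid or buffer pH, 5 were lower and 1 higher (median -0.23). Car9, the membrane carbonic anhydrase used as a marker of hypoxic tissue, was at 6.82, 7.13 and 7.04 in Si1 and 9.37, 9.22 and 9.07 in NC (-2.22 ± 0.11), although a second Car9 probe set was not called (-0.18 ± 0.10). The lactate exporter Slc16a3 fell (-1.58) with its chaperone Bsg (-0.57), and Slc16a1 rose.

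Several oxygen sensors fell as well. Of 12 HIF subunits, sensors and cofactors, 7 were lower and 2 higher (median -0.42). Egln1, the main prolyl hydroxylase, was at 9.61, 9.44 and 9.59 against 11.36, 11.28 and 11.33 (-1.77 ± 0.06). Cited2, which competes with HIF for the coactivator p300, fell as well (-1.12 ± 0.05), and Si1 lay below Si6 there (-0.72 ± 0.05, adjusted p 2.2e-08). The second HIF alpha gene, Epas1, was lower too, at 7.19, 7.29 and 7.13 against 7.99, 8.07 and 7.85 (-0.76 ± 0.08). Vhl, the ligase subunit that binds hydroxylated HIF, was at 8.12, 8.05 and 8.34 against 8.92, 8.88 and 8.74 (-0.68 ± 0.07). Arnt, the partner of both alpha subunits, was not called (-0.10 ± 0.04), and Arnt2 rose (0.52). Hif1an, the asparagine hydroxylase, rose slightly (0.14 ± 0.05, adjusted p 0.030).

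Secreted and angiogenic factors were mixed. Of 25, 13 were lower, 2 were higher and 10 were not called (median -0.24). Vegfa, the main growth factor for blood vessels, was at 8.86, 8.85 and 8.86 in Si1 and 10.20, 10.24 and 10.28 in NC (-1.38 ± 0.05). The Si1 arrays still lay above the normoxic ones, which were at 8.13, 8.22 and 8.29. Adrenomedullin (Adm), a vasodilator peptide, was at 6.94, 6.60 and 6.88 against 8.92, 8.94 and 8.91 (-2.12 ± 0.11). The protease Pcsk6 (-2.57), the chemokine Cxcl12 (-1.67), the growth factor binding protein Igfbp3 (-1.63) and the peptide Apln (-0.81) also fell. Tgfb1 rose (1.0 ± 0.07), as did Angpt2 (0.40). Angptl4, Epo and Edn1, known HIF targets of other cells, were not called.

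Enzymes that modify collagen and the collagens themselves were read next. Of 10 collagen hydroxylases and lysyl oxidases, 8 were lower and 1 higher (median -0.68). P4ha2, a prolyl hydroxylase of collagen, was at 7.24, 7.40 and 7.38 against 9.30, 8.99 and 9.27 (-1.85 ± 0.09), and P4ha1 (-1.08), Plod2 (-1.08) and Lox (-0.78) followed. Loxl1 rose (0.26). Of 25 collagens, 9 were lower and none was higher (median -0.10). Col28a1 was by far the lowest (-2.73 ± 0.11), and Col1a1 (-0.81) and Col15a1 (-0.69) fell less. Of 19 integrins, 9 were lower and 3 higher (median -0.11). Itga2, a collagen receptor subunit, was at 8.06, 8.07 and 8.03 against 10.11, 10.00 and 9.80 (-1.91 ± 0.07), whereas Itga5, the fibronectin receptor subunit, was at 10.60, 10.51 and 10.62 against 9.04, 9.20 and 9.23 (1.42 ± 0.06). Adamts5, a protease of aggrecan and versican, was among the largest falls (-2.40).

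JmjC histone demethylases use oxygen to remove methyl groups from histones, and several are HIF targets. Of 18, 12 were lower and 2 higher (median -0.32). Kdm3a, which removes a repressive histone mark, had a log2 fold change of -1.56 ± 0.06. Kdm4b was at 8.25, 8.19 and 8.30 against 9.72, 9.82 and 9.89, with a log2 fold change of -1.56 ± 0.06. Kdm5b (-1.19) and Kdm2a (-0.78) also fell, and Riox1 (0.31) and Phf2 (0.18) rose. In this list 8 members were lower in Si1 than in Si6 and 1 was higher.

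Genes that differed between the hypoxia control and normoxia were then set beside Si1. Normoxia had 10% CO2 and the hypoxia control 5%, so oxygen and CO2 cannot be told apart in this contrast. Raised or lowered by hypoxia is used here as a short name for it. The hypoxia control against normoxia shares no array with Si1 against NC. There 2190 genes (9.87%) were higher and 2474 (11.2%) were lower, of which 128 (0.577% of all) rose and 30 (0.135%) fell by 2-fold or more. Of the 128 genes raised at least 2-fold by hypoxia, 113 were lower in Si1, 9 were not called and 6 were higher. That is 88.3% lower, against 14.8% of all genes, and 70 of the 128 were at least 2-fold lower. With the dimmer 50% of genes left out, 4195 genes were called higher and 2906 lower, and this class held 101 falls. Calls thus lay mostly among brighter genes, so shares over all genes are a low yardstick for such classes. Leaving out 1 gene known only by a clone name, those with the largest hypoxic rise among the 113 were Prelid2, Bnip3, Stc1, Pdk1, Fam162a, Vldlr, Plekha2, Car9, Clybl and Hk2. Prelid2 had risen by 4.91 in hypoxia and Bnip3 by 4.44. Plekha2, a lipid-binding adaptor, had risen by 2.93 and fell in Si1 (-2.38), while its second probe set did not follow (-0.13 ± 0.13). Clybl, a mitochondrial enzyme of citramalate metabolism, had risen by 2.69 and fell (-1.42).

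A few hypoxic genes did not fall. Grem1, an antagonist of bone morphogenetic proteins, had risen by 1.73 in hypoxia and was slightly higher in Si1 (0.21 ± 0.07). Tubb3, a neuronal tubulin (0.42), Pmp2, a myelin lipid carrier (0.31), Rflnb (0.52), Chrnb1, a muscle acetylcholine receptor subunit (0.48), and Slc38a3, a glutamine transporter (0.75), were the other 5 that rose. Slc38a3 stood at 9.85, 10.01 and 10.03 in Si1 and 9.23, 9.21 and 9.20 in NC, above the hypoxia control at 8.0, 7.92 and 7.77. Kitl, the ligand of the melanocyte receptor Kit, was not called, at 9.48, 9.34 and 9.43 in Si1 and 9.65, 9.57 and 9.50 in NC (-0.15 ± 0.06). On the hypoxia control arrays Kitl was at 8.35, 8.20 and 8.21, so against that group Si1 was higher (1.16). The other genes in the uncalled class that have established names were Tnnt2, Elobl, Tppp3, Stac2, Gfra2, Ina and Htra3, with log2 fold changes between -0.15 and 0.15. Against the hypoxia control, Tnnt2 stood at 0.82 and Tppp3 at 0.35. The ninth, Mir3473b, was at -0.47.

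Of the 30 genes lowered at least 2-fold by hypoxia, 16 were higher in Si1, 5 were not called and 9 were lower. The 16 are 53.3%, against 20.2% of all genes, dim ones included. Those that rose included Atp1b1, a sodium pump subunit (2.02 ± 0.10), Chaf1b (1.27) and Mcm2 (1.18) of DNA replication, Mthfd1 of folate metabolism (1.05), Parp8 (1.02), Castor2, an arginine sensor family member (0.97), and Cpt1a, which admits fatty acids to mitochondria (0.30). Those that fell further included Abca12, a lipid transporter (-1.27), Ednrb (-1.19), Azgp1 (-0.75) and Smpdl3a (-0.63). Read the other way, of the 237 genes at least 2-fold lower in Si1, hypoxia raised 165, lowered 27 and left 45 uncalled. Of the 282 at least 2-fold higher, hypoxia lowered 121, raised 32 and left 129 uncalled. Falls without a hypoxia call were led by Serpina3n, a protease inhibitor (-2.15), Ogn, a small proteoglycan (-1.93), Plcb4, a phospholipase of receptor signalling (-1.84), Pcdhb21, a protocadherin (-1.73), and Casp1, the inflammasome protease (-1.63).

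**Figure D3:**
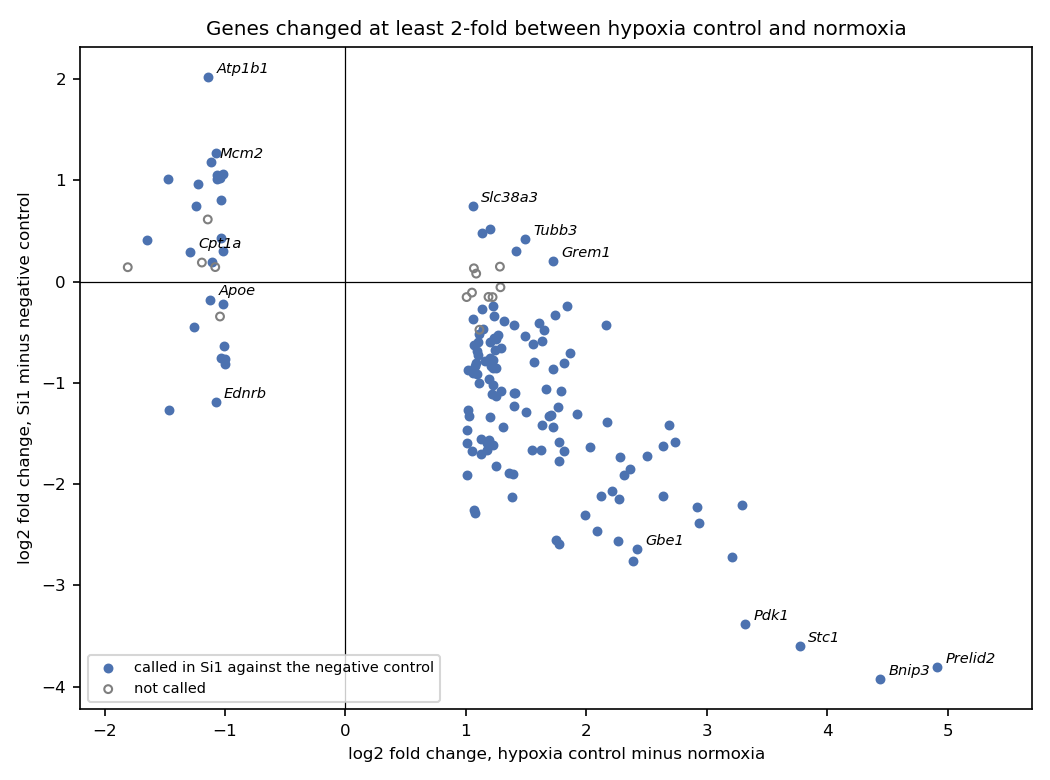
Log2 fold change of Si1 minus negative control (vertical axis) against that of hypoxia control minus normoxia (horizontal axis) for the 158 genes changed at least 2-fold between the latter. Filled points were called in Si1 and open points were not; 113 of the 128 genes on the right lie among the filled points under 0.

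The 15 largest rises included 2 smooth muscle actins, and several stood well above Si6. Acta2, smooth muscle actin, rose furthest: 11.41, 11.42 and 11.40 in Si1 against 8.01, 8.03 and 8.15 in NC (3.35 ± 0.08, adjusted p 3.4e-13). The Si6 arrays were at 8.02, 8.06 and 7.95, inside the range of the other groups, and Si1 exceeded Si6 by 3.40 ± 0.08 (adjusted p 6.2e-13). Actg2, the enteric smooth muscle actin, was at 8.64, 8.76 and 8.60 against 6.38, 6.36 and 6.28 (2.33 ± 0.08). Tagln, an actin-bundling protein of smooth muscle, was at 7.37, 7.63 and 7.71 against 5.89, 6.0 and 5.94 (1.63 ± 0.10). Of 18 smooth muscle and contractile genes, 15 were higher, none was lower and 3 were not called (median 0.49). Cnn1 (1.07), Actn1 (0.94), Tpm2 (0.67) and Myh9 (0.46) were among those that rose. Against Si6, 17 of the 18 were higher in Si1 and none was lower.

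Of 10 genes of the plasminogen activator system, which turns plasminogen into the protease plasmin at the cell surface, 5 were higher and none was lower (median 0.16). Plaur, the urokinase receptor, was at 10.20, 10.15 and 10.55 in Si1 and 7.08, 7.08 and 7.36 in NC (3.13 ± 0.11). Its ligand Plau, urokinase, was at 8.69, 9.10 and 8.44 against 6.98, 7.29 and 7.10 (1.63 ± 0.14). Serpinb2, an inhibitor of urokinase, was at 7.89, 7.80 and 7.94 against 5.06, 5.61 and 5.0 (2.65 ± 0.14). All 3 were therefore high on every Si1 array and low on every NC array. Mmp1a, an interstitial collagenase, was at 5.93, 6.02 and 6.01 against 3.79, 3.65 and 3.76 (2.26 ± 0.06). Krt17, a keratin of stressed epithelium, was at 8.68, 8.92 and 8.50 against 5.60, 5.73 and 5.58 (3.07 ± 0.12), and Cpa4, a carboxypeptidase, had a log2 fold change of 2.42. Tnc, the matrix protein tenascin C, rose (1.35 ± 0.08) where the Si6 arrays, at 6.20, 6.40 and 6.57, lay below NC at 8.09, 8.15 and 7.96. Further large rises were in Lce1h, a cornified envelope gene (2.45), Tmem171 (2.35) and the long non-coding RNA Wincr1 (2.20). Astx5 (2.27) has 5 probe sets on the array, 3 of them with identical values, and belongs to a multi-copy family, so it is uncertain which copy was measured.

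Immediate early genes, which growth factor signalling switches on within minutes, were higher in 18 of 24 cases and lower in 3 (median 0.35). Dusp5, a phosphatase of the kinase ERK, was at 9.19, 9.09 and 9.40 against 7.51, 7.74 and 7.39 (1.68 ± 0.10). Egr1 was at 8.76, 8.76 and 8.85 against 7.61, 7.66 and 7.69 (1.14 ± 0.09). Dusp1 (1.04), Atf3 (1.01), Egr3 (0.84) and Jun (0.76) rose too, while Fos rose little (0.26 ± 0.08). The 3 that fell were Ier3 (-0.49), Fosl2 (-0.39) and Klf2 (-0.37). Against Si6, 22 of the 24 were higher in Si1 and none was lower. Relative to the hypoxia control, 15 were higher and 3 lower in Si1, and for Egr1 that group was at 6.70, 6.68 and 6.50, below NC. Over all genes, 4629 (20.9%) were higher and 3787 (17.1%) lower in Si1 than in the hypoxia control, and 1730 (7.8%) were higher and 1666 (7.51%) lower in NC than in it.

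Jun and Fos proteins form AP-1, which binds TGANTCA. The motif stood in 7.26% of all promoter windows and in 5 of the 14 windows of the 15 largest rises (35.7%), and in 4 of 7 windows of the plasminogen list. These sets share Plaur and Serpinb2. Their windows held a median of 4 and 7 CG pairs, beside 13 over all genes, so the windows compared differ in composition. None of the 22 windows of the immediate early list held the motif. Windows of all genes at least 2-fold higher held it in 9.64% of cases, those at least 2-fold lower in 6.98% and those not called in 8.23%. For genes at least 2-fold lower that hypoxia had raised at least 2-fold, the share was 12.0%. The motif was chosen with these results known, so the shares are descriptions. Stretches of 4 of the largest rises are shown, each with the motif in capitals and up to 40 bases on either side.
Plaur, chr7:24462374-24462460, plus strand: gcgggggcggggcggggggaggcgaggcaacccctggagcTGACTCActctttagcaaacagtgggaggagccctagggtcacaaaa
Serpinb2, chr1:107511289-107511375, plus strand: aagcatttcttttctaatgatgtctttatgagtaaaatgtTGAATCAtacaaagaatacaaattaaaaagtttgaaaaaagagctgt
Mmp1a, chr9:7464028-7464114, plus strand: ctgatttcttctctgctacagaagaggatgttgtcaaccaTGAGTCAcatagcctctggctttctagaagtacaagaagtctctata
Cpa4, chr6:30568319-30568405, plus strand: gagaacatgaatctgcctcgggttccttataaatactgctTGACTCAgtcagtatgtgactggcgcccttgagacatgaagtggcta
In Plaur the motif begins 69 bases before the start, in Serpinb2 94, in Mmp1a 73 and in Cpa4 10. The CArG box bound by serum response factor was searched only in its strict form, CCWWWWWWGG with W for A or T. That form stood in 1.45% of all windows. It stood in 3 of 18 windows of the contractile list (16.7%) and in 5 of 22 of the immediate early list (22.7%). Windows of genes at least 2-fold higher held it in 10 of 280 cases (3.57%), and none of the 215 windows of genes at least 2-fold lower did. Acta2 and Cnn1 held no match to the strict form in the window searched. The Acta2 window does hold ccctatatgg and ccttgtttgg, which are near that form, so looser CArG boxes were missed by this search.

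**Figure D4:**
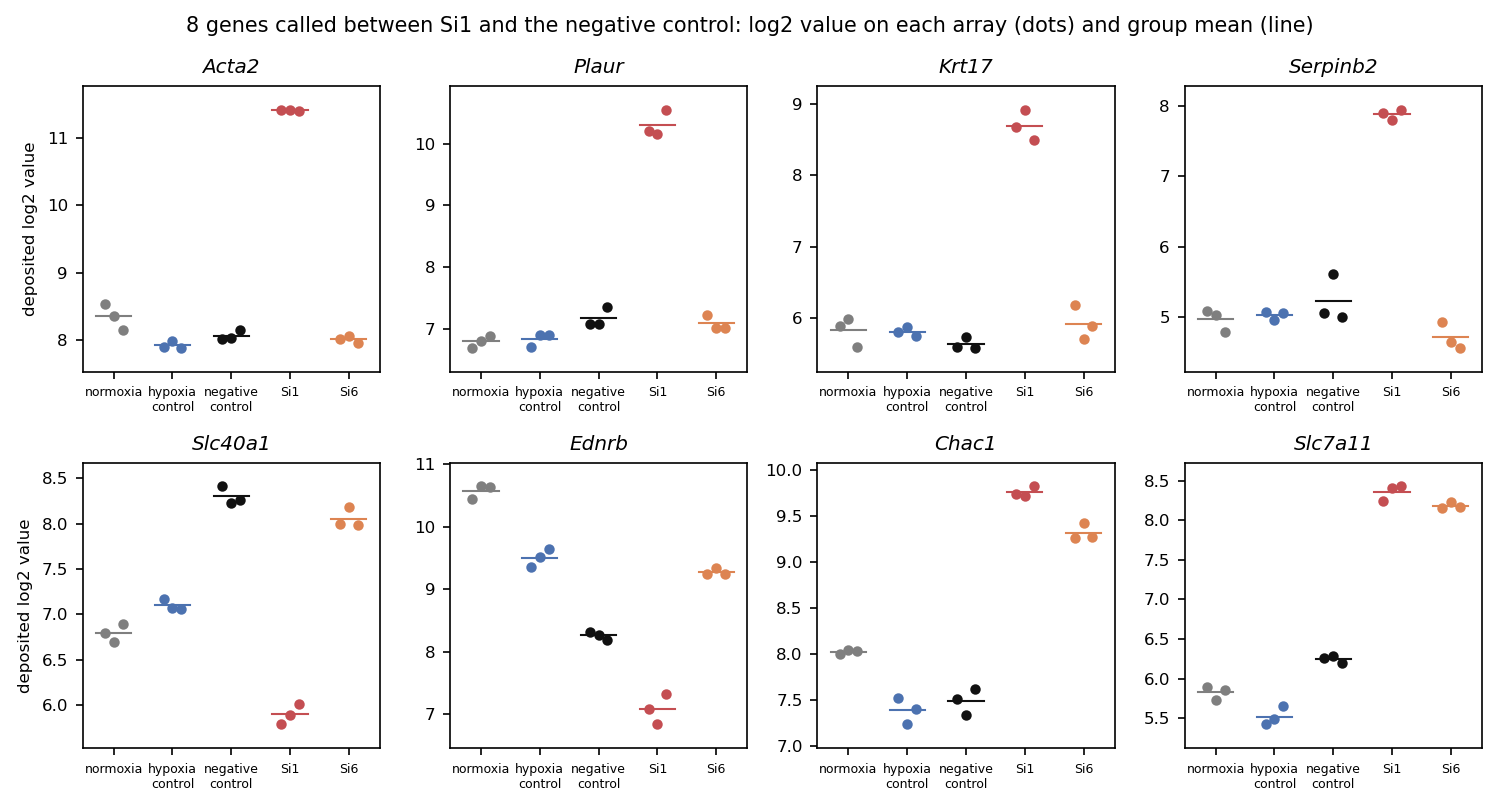
Deposited log2 value (vertical axis) of 8 genes on each of the 3 arrays of 5 groups (dots) with the group mean (line). Acta2, Plaur, Krt17 and Serpinb2 are high on the 3 Si1 arrays alone, Slc40a1 and Ednrb are lowest there, and Chac1 and Slc7a11 are high on the Si1 and Si6 arrays; Acta2 is at 11.41, 11.42 and 11.40 in Si1 and 8.02, 8.06 and 7.95 in Si6.

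Differences between the siRNAs were tested directly. Si1 exceeded Si6 for 3221 genes (14.5%) and lay below it for 2977 (13.4%). With each array centred on its median, 2474 genes lay above and 3359 below, so the balance depends on the scaling. Of the 282 genes at least 2-fold higher than NC in Si1, 251 were also higher than in Si6, 3 were lower and 28 were not called. Of the 237 at least 2-fold lower, 166 were lower than in Si6, 15 were higher and 56 were not called. Genes picked for a large change on the Si1 arrays tend to look more extreme there, so these counts are descriptions. Comparisons of each siRNA with NC share the NC arrays, and their values are given side by side. The median log2 fold change against NC of the 237 was -1.35 in Si1 and -0.81 in Si6, and of the 282 it was 1.20 in Si1 and 0.42 in Si6. For Hif1a itself the values were -1.98 and -1.70, for Bnip3 -3.92 and -3.61, and for Stc1 -3.60 and -4.02. For Plaur they were 3.13 and -0.09, and for Krt17 3.07 and 0.29. Whether such differences follow the level of Hif1a or the siRNA used was not tested.

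Some losses also parted the siRNAs. Slc40a1, ferroportin, the only known exporter of iron, was at 5.79, 5.89 and 6.02 in Si1, 8.41, 8.23 and 8.26 in NC and 8.0, 8.18 and 7.98 in Si6. It fell in Si1 by a log2 fold change of -2.40 ± 0.08, and Si1 lay below Si6 by -2.16 ± 0.08. NC itself was 1.20 above the hypoxia control there, and Si1 against that group gave -1.20. Ogn was at 6.67, 6.62 and 6.85 in Si1, 8.68, 8.62 and 8.63 in NC and 8.84, 9.06 and 8.84 in Si6. Ednrb, the endothelin receptor that melanocytes need to develop, was at 7.08, 6.83 and 7.32 in Si1, 8.32, 8.27 and 8.19 in NC and 9.24, 9.34 and 9.25 in Si6, so Si1 lay below NC (-1.19 ± 0.10) and Si6 above it (1.01 ± 0.10). The hypoxia control was at 9.36, 9.51 and 9.64, above NC and, in its mean, above Si6, so the direction for Si6 depends on the control, while Si1 lay below either (-2.42 against the hypoxia control). Sgk3, a kinase related to Akt, also lay below NC in Si1 (-1.18) and above it in Si6 (0.62). Its Si6 arrays, at 9.52, 9.58 and 9.55, were above the hypoxia control too, at 9.26, 9.31 and 9.31. Dynlt3, a dynein light chain (-1.78), Gjb2, a connexin (-1.37), and Adhfe1, a mitochondrial dehydrogenase (-1.11), were also lower than in Si6.

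Genes of the amino acid stress response rose, and here Si6 had values near those of Si1. When amino acids run short, the kinase Gcn2 (Eif2ak4) raises translation of Atf4, which switches on amino acid synthesis and import. Of 22 members, 14 were higher and 2 lower (median 0.58). Chac1, which degrades glutathione, was at 9.74, 9.71 and 9.82 in Si1, 7.51, 7.33 and 7.62 in NC and 9.26, 9.42 and 9.27 in Si6 (2.27 ± 0.08 for Si1 against NC). Asns, asparagine synthetase, was at 11.50, 11.52 and 11.60 against 9.87, 9.84 and 9.94 (1.66 ± 0.07). Psat1 (1.13), Aldh18a1 (1.13), Cth (1.05), Ddit3 (0.83) and Atf4 itself (0.70) rose. Vldlr and Eif2ak4 (-0.20) were the 2 that fell, and Phgdh, the first enzyme of serine synthesis, was not called (-0.19 ± 0.11). Of these 22, 6 were higher and 2 lower in Si1 than in Si6.

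Amino acid transporters were higher in 10 of 16 cases and lower in 1 (median 0.35). Slc7a11, which takes up cystine, was at 8.25, 8.41 and 8.43 in Si1, 6.26, 6.29 and 6.20 in NC and 8.15, 8.23 and 8.17 in Si6 (2.11 ± 0.07 for Si1 against NC), although its second, dimmer probe set did not move (0.00 ± 0.08). Slc1a4 (1.88), Slc7a1 (1.59) and Slc7a5 (1.22), carriers of neutral, basic and large neutral amino acids, rose too. Of 17 serine and one-carbon folate enzymes, 10 were higher and 3 lower (median 0.28). Shmt2, a mitochondrial serine hydroxymethyltransferase, was at 11.42, 11.40 and 11.57 against 9.54, 9.57 and 9.73 (1.85 ± 0.07), and Mthfd2, a mitochondrial folate enzyme, at 10.86, 10.82 and 10.77 against 8.91, 8.95 and 9.01 (1.86 ± 0.07). The 3 that fell were mitochondrial too: Aldh1l2 (-0.70), Mthfd1l (-0.29) and Gldc (-0.19). Of 18 aminoacyl-tRNA synthetases, which load transfer RNAs for translation, 17 were higher and none was lower (median 0.71), from Gars (1.46) and Cars (1.29) down to Kars (0.23). Qars, at 0.04 ± 0.06, was not called.

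Atf4 and its partners bind an amino acid response element, searched here as TGATGNAA on either strand. It stood in 3.39% of all promoter windows, in 28.0% of those of the amino acid stress list and in 36.4% of those of the synthetases. Windows of all genes at least 2-fold higher held it in 5.71% of cases and those at least 2-fold lower in 1.4%. This motif too was chosen with results known. The stretches around it in 4 genes that rose are shown with the motif in capitals, TTGCATCA being the form read on the opposite strand.
Chac1, chr2:119351009-119351096, plus strand: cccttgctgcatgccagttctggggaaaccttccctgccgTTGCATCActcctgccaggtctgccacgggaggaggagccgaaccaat
Slc7a11, chr3:50443632-50443719, minus strand: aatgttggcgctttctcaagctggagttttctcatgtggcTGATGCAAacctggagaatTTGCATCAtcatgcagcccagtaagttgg
Asns, chr6:7693185-7693272, minus strand: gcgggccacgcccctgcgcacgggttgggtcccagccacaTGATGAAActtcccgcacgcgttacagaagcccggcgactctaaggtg
Atf3, chr1:191183396-191183483, minus strand: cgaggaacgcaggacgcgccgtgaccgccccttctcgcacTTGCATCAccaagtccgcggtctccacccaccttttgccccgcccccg
The Slc7a11 window held 2 matches, both in capitals. The windows of Mthfd2 and Ddit3, which rose as well, were also searched and held none.

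Transcripts of most listed ribosome biogenesis and DNA replication genes rose. Of 25 ribosome biogenesis genes, 23 were higher and none was lower (median 0.85, the highest of the 39 lists). Dkc1, which modifies ribosomal RNA, was at 9.08, 8.91 and 9.02 against 7.70, 7.92 and 7.98 (1.13 ± 0.10), and Rrp9 (1.13), Nhp2 (1.11), Bop1 (1.02) and Polr1b (0.95), a subunit of RNA polymerase I, rose with it. In Si1 22 of the 25 were higher than in Si6 and none was lower. Npm1 and Polr1c were not called. Of 38 DNA replication genes, 36 were higher and 1 lower (median 0.73). Rrm2, the ribonucleotide reductase subunit that limits the supply of DNA precursors, was at 10.02, 9.89 and 9.97 against 8.24, 8.14 and 8.30 (1.74 ± 0.06). A second, much dimmer Rrm2 probe set did not follow (0.07 ± 0.06). Mcm2, part of the replicative helicase, was at 10.14, 10.13 and 10.26 against 8.94, 8.97 and 9.08 (1.18 ± 0.06), and Cdt1 (1.13), Cdc6 (1.03) and Gins3 (1.04) rose. Gins4 fell (-0.25). In the hypoxia control against normoxia, 34 of the 38 were lower and none was higher (median -0.53). NC was itself higher than the hypoxia control for 29 of the 38 and lower for none (median 0.45). The NC arrays thus did not carry much of that hypoxic fall.

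Mitosis genes were mixed. Of 28, 6 were higher, 9 lower and 13 not called (median -0.01). Birc5 (0.51) and Aurkb (0.42) of the chromosomal passenger complex rose, and Kif20a (-0.61), Ccnb2 (-0.57) and Cenpf (-0.56) fell. The control group mattered for this list: against the hypoxia control, 25 of the 28 were higher in Si1 and none was lower. NC itself was higher than the hypoxia control for all 28. Kif20a (0.06) and Cenpf (0.14) had the opposite sign against that group. DNA replication genes were higher against either control (37 of 38 against the hypoxia control). Among cell cycle brakes and D and E cyclins, 8 of 21 were higher and 5 lower (median 0.13). Ccng2, a cyclin that holds cells back, was at 8.55, 8.44 and 8.55 against 10.27, 10.37 and 10.19 (-1.76 ± 0.06), and the kinase inhibitor Cdkn1b fell (-0.94). Ccne1, the cyclin of the step into S phase, was at 9.31, 9.27 and 9.26 against 8.24, 8.25 and 8.29 (1.02 ± 0.07), and Ccnd1 (0.65) and Cdkn1a (0.59) rose.

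Regulators of growth moved in both directions. Of 13 genes of the Myc and Max network, 4 were higher and 6 lower (median -0.16). Mxi1, a Max partner that opposes Myc and is a HIF target, fell (-1.47 ± 0.06), with Mxd1 (-0.89) and Mxd4 (-0.70). Myc rose slightly, at 9.98, 9.99 and 9.93 against 9.52, 9.81 and 9.63 (0.31 ± 0.06), where the Si6 arrays were at 9.08, 9.03 and 9.05. Of 19 brakes and nutrient sensors of mTORC1, 6 were higher and 4 lower (median 0.11). Deptor, a subunit that inhibits the complex, was at 8.24, 8.39 and 8.20 against 9.95, 10.03 and 9.94 (-1.70 ± 0.06) and fell on its second probe set too (-1.99). Sesn1 (-0.79) and Sesn3 (-0.77) fell, while Sesn2 (0.55), the stress-induced sestrin, rose.

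Nuclear genes of the mitochondrion rose by small amounts in large numbers. Of 46 respiratory chain and ATP synthase genes, 40 were higher and none was lower (median 0.38). Cox5a (0.98 ± 0.10), Cyc1 (0.95) and Ndufb6 (0.92) rose most, and none passed 2-fold. Of 41 genes of the mitochondrial ribosome and gene expression, 33 were higher and 1, Tfb2m (-0.30), was lower (median 0.40). Mrps18b (0.98) and Mrpl16 (0.86) led. Of 22 citrate cycle genes, 18 were higher and 1 was lower (median 0.47). Idh3a, a subunit of the cycle's NAD-dependent isocitrate dehydrogenase, was at 10.68, 10.59 and 10.66 against 9.23, 9.29 and 9.24 (1.39 ± 0.05). Cs, citrate synthase (0.90), and Sdhb, a succinate dehydrogenase subunit (0.90), rose, and Pdp1, the phosphatase that reactivates pyruvate dehydrogenase, fell (-0.34).

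Lipid, folding, redox and iron genes were less uniform. Of 17 cholesterol synthesis and uptake genes, 14 were higher and 1 lower (median 0.43), led by Msmo1 (0.82) and Fdps (0.66). Of 24 genes of lipid uptake, storage and fatty acid oxidation, 4 were higher, 4 lower and 16 not called (median 0.03). Fabp7, a fatty acid carrier of the neural crest lineage, fell (-1.07 ± 0.07) where Si6 was at 0.15 against NC. Of 19 endoplasmic reticulum chaperones and unfolded protein response genes, 13 were higher and 3 lower (median 0.23), among them Hyou1 (0.62) and Hspa5 (0.43). Of 17 Nrf2 antioxidant genes, 7 were higher and 6 lower (median 0.12). Nfe2l2, which encodes Nrf2, was at 11.17, 11.09 and 11.17 against 11.88, 11.97 and 12.04 (-0.82 ± 0.05), and its targets Me1 (-1.28) and Nqo1 (-0.75) fell, while Txnrd1 (1.05) and Taldo1 (0.89) rose. Of 16 iron genes, 7 were higher and 5 lower (median 0.10): beside Slc40a1, Tfrc, the transferrin receptor, fell (-0.53), and Slc11a2, an iron importer (1.0), and Alas1, the first enzyme of haem synthesis (0.89), rose. Of 27 lysosome and autophagy genes, 16 were higher and 6 lower (median 0.17), with Atg9b highest (1.34) and Map1lc3a lowest (-0.49). Against the hypoxia control that list had 7 higher and 9 lower, and the cholesterol list had 9 higher and 1 lower.

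Pigment genes moved both ways. Of 22 genes of melanin synthesis and melanosomes, 12 were lower and 4 higher (median -0.16). Mitf, the master regulator of the lineage, was at 10.19, 10.21 and 10.10 against 11.12, 11.09 and 11.08 (-0.93 ± 0.05). Tyr, tyrosinase, the first enzyme of melanin synthesis, was at 9.55, 9.25 and 9.34 against 10.28, 10.30 and 10.30 (-0.91 ± 0.07). Oca2, a melanosomal chloride channel, was at 9.14, 9.02 and 9.17 against 10.32, 10.36 and 10.19 (-1.18 ± 0.06), and Mlph, which tethers melanosomes to the cell's motor protein, at 10.77, 10.77 and 10.84 against 11.82, 11.86 and 11.94 (-1.08 ± 0.05). Dct (-0.18) and Tyrp1 (-0.13) were barely lower. Pmel (0.08 ± 0.06), Mlana (0.12 ± 0.09) and Slc45a2 (0.07 ± 0.07) were not called. In normoxia Mitf was at 11.49, 11.48 and 11.58 and Tyr at 11.30, 11.27 and 11.27, above all 4 hypoxic groups for Tyr. Si1 was lower than Si6 for 18 of the 22 genes and higher for 1. Against the hypoxia control, 19 of the 22 were lower in Si1, including Pmel (-0.60), Mlana (-0.81) and Slc45a2 (-0.51), and 1 was higher. NC was itself lower than the hypoxia control for 17 of them.

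Of 19 melanocyte receptors and lineage factors, 11 were lower and 2 higher (median -0.33). With Ednrb, the receptor Mc1r (-0.72) and the factors Sox5 (-0.99), Tfap2a (-0.59), Sox10 (-0.39) and Pax3 (-0.33) fell. Irf4 (0.72), a pigmentation factor, and Sox9 (0.44) rose. Against the hypoxia control Irf4 was lower (-0.64). The receptor Kit was not called (0.02 ± 0.11) but was lower than in the hypoxia control (-0.87). Of 21 genes that mark dedifferentiated melanocytes and melanoma cells, 7 were higher and 4 lower (median -0.03). Ngfr, a receptor of the neural crest, was at 10.02, 9.90 and 10.18 in Si1, 8.50, 8.47 and 8.45 in NC and 9.88, 9.62 and 9.70 in Si6 (1.56 ± 0.08 for Si1 against NC). Tnc, Ccn1 (1.18), Jun, Nes (0.46) and Axl (0.38) rose, while Fn1 (-0.32) and Wnt5a (-0.36) fell.

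Genes of p53, of interferon, of RNA interference and of the clock complete the lists. Of 21 p53 targets, 15 were higher and 1 lower (median 0.56). Btg2, an anti-proliferative gene, was at 9.28, 9.61 and 9.45 against 7.78, 7.77 and 7.77 (1.67 ± 0.08), and Aen, a nuclease (1.35), Eda2r (0.98), Phlda3 (0.77) and Mdm2 (0.70) rose. Sesn1 was the member that fell. In Si1 17 of the 21 were higher than in Si6. Of 27 interferon and RNA sensing genes, which double-stranded RNA can induce, 9 were higher, 3 lower and 15 not called (median 0.09). Ccl5, a chemokine, was at 9.17, 9.45 and 9.76 in Si1, 8.09, 8.09 and 8.19 in NC and 6.85, 6.91 and 6.68 in the hypoxia control (1.34 ± 0.12 against NC). Usp18, which dampens interferon signalling, was at 8.75, 9.25 and 9.28 against 8.01, 7.93 and 8.0 (1.11 ± 0.11). Ifi204 fell (-1.76) yet was higher than in the hypoxia control (0.41). Against the hypoxia control 20 of the 27 were higher in Si1 and 3 lower, and against Si6 18 were higher and 2 lower.

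Of 15 genes of the RNA interference machinery, 7 were higher and 4 lower (median 0.10), with Ago2, the enzyme that cuts siRNA targets, at 0.71 and Ago1 at -0.43. Of 17 circadian clock genes, 4 were higher and 9 lower (median -0.16). Rora, a nuclear receptor that hypoxia induces, fell (-1.25 ± 0.06), with Per3 (-0.69) and Ciart (-0.62), and Clock (0.66) and Cry1 (0.61) rose.

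**Figure D5:**
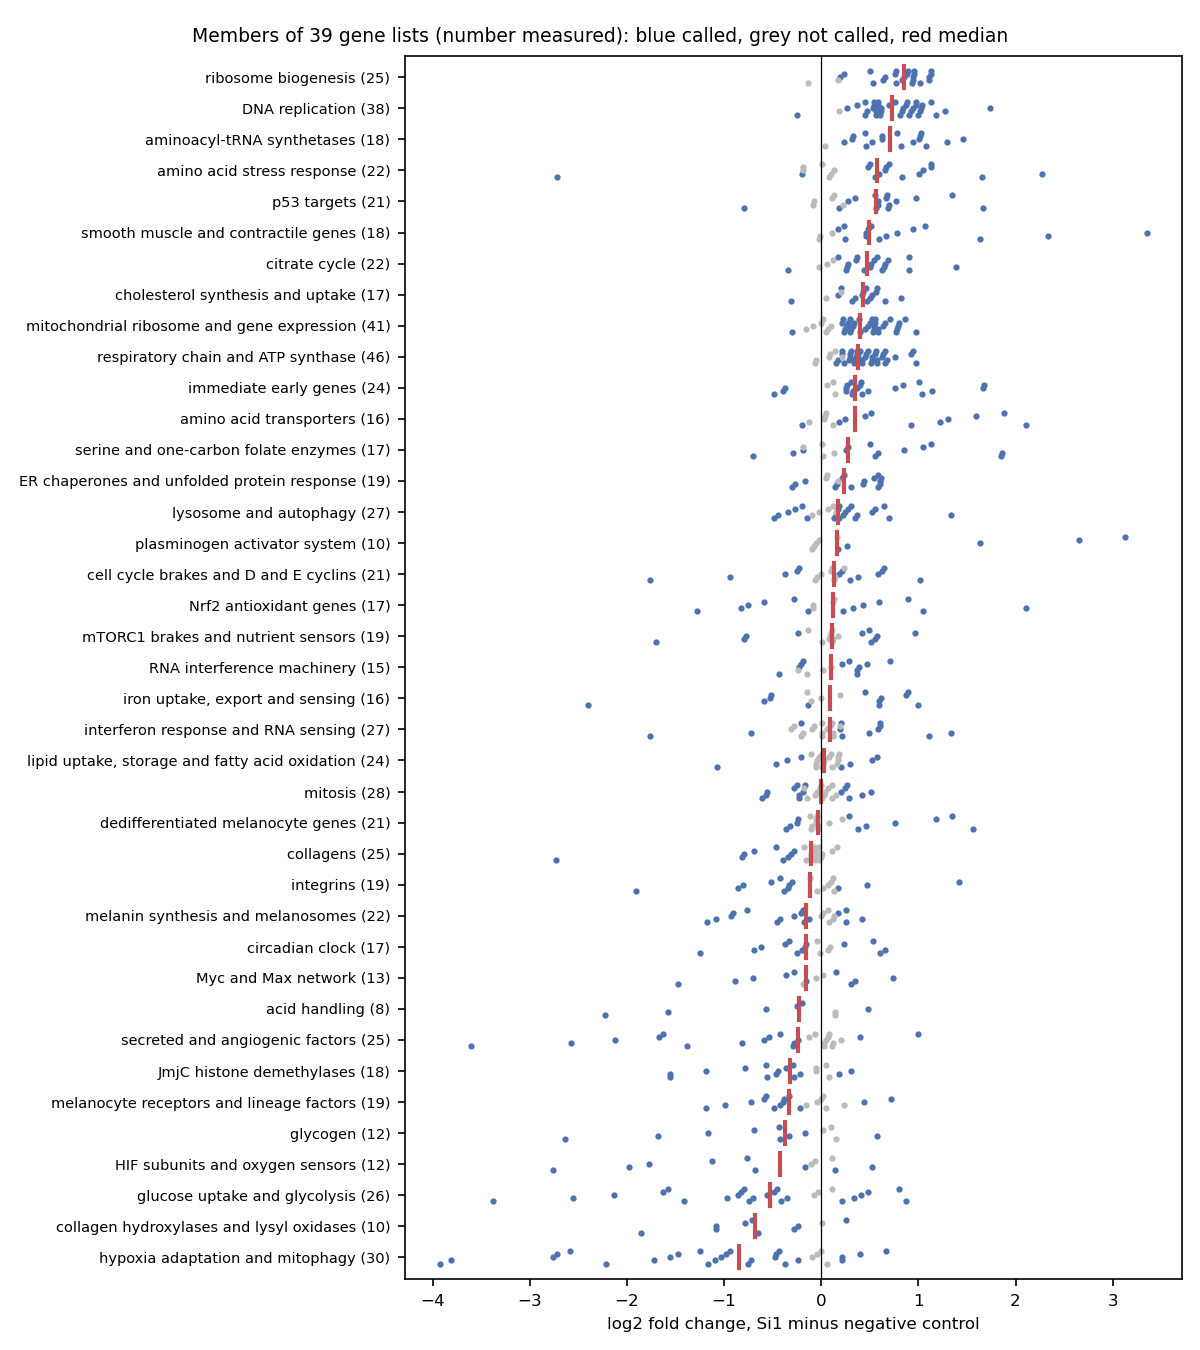
Log2 fold change of Si1 minus negative control (horizontal axis) for the measured members of 39 gene lists (vertical axis, number of members in brackets), ordered by list median. Blue points passed the test, grey points did not and red bars are medians, which run from -0.84 for hypoxia adaptation to 0.85 for ribosome biogenesis.

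Markers of other cell types were read beside these groups. Of 12 keratinocyte markers, Krt17 rose and the other 11 were not called. The summed level of all 12, Krt17 included, as log2 of the summed linear values, was 9.71 to 9.74 in NC and 10.17 to 10.32 in Si1. Of 12 fibroblast markers none was higher and 4 were lower, led by Postn, a matrix protein (-1.39 ± 0.10), and the sum was 10.98 to 11.03 in NC and 10.52 to 10.58 in Si1. None of 11 endothelial markers was called, with sums of 9.37 to 9.43 and 9.44 to 9.49. Of 11 leukocyte markers 3 were higher, Cd68 (1.33), Laptm5 (0.43) and Itgam (0.22), while the pan-leukocyte gene Ptprc was not called (-0.09 ± 0.07). The leukocyte sum was 9.98 to 10.06 in NC and 10.57 to 10.66 in Si1. Of 8 Schwann cell markers 5 were lower, led by S100b (-1.82 ± 0.09), which melanocytes also express, and the sum was 12.17 to 12.25 in NC and 11.55 to 11.63 in Si1. Of 10 melanocyte markers 6 were lower and none was higher. Their sum, with Tyrp1 (-0.13) the brightest member, was 14.82 to 14.91 in NC and 14.64 to 14.73 in Si1. The part of other cell types in the rise of Acta2, Krt17 and the contractile genes was not tested beyond these markers.

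Small differences were the least stable. The calls of Ddit4, Hif1an, Grem1, Riox1, Dct, Tyrp1, Eif2ak4 and Itgam were lost when the fit held the compared groups alone, and those of Loxl1 and Pmp2 under quantile normalization. Leaving out 1 array ended the calls of Fos and Rab20, in Fos without NC array 1 or 2 or Si1 array 2, and in Rab20 without NC array 2 or 3 or Si1 array 1 or 3. Against the hypoxia control, Ccnb2, Gins4, Myc, Pdp1 and Tfrc were not called. Tfb2m lost its call when the mean of its probe sets was taken. The choice of control changed few of the large differences. Of the 237 genes at least 2-fold lower than NC, 234 were also lower than in the hypoxia control, and all 282 at least 2-fold higher genes were higher there too. Of all calls, 2536 of the 3278 falls and 3663 of the 4472 rises were called the same way. More genes passed 2-fold against the hypoxia control, with 539 higher (2.43%) and 362 lower (1.63%). Among called genes named here with a log2 fold change of 0.5 or more against NC, the change against the hypoxia control was smaller by over 1.5 times for Pcsk6 (-1.57), Igfbp3 (-1.08), Col1a1 (-0.39), Nqo1 (-0.39), Ciart (-0.30), Slc7a5 (0.72), Eno2 (0.49), Fdps (0.23) and Ago2 (0.35), beside those named above. It was larger by that much for Btg2 (2.62), Ccl5 (2.65), Ccn1 (2.29), Eda2r (2.21), Egr1 (2.17), Slc38a3 (2.07), Usp18 (1.73), Actn1 (1.48), Mdm2 (1.33), Birc5 (1.30), Sesn2 (1.15) and Cdkn1a (1.08). Larger falls of that kind were in Oca2 (-2.05), Tyr (-1.65), Pdk2 (-1.50), Smpdl3a (-1.41), Azgp1 (-1.18) and Pygl (-1.05).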

How the data were processed

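Total RNA of 15 samples was hybridised to Affymetrix arrays, 1 colour, and the values are log2 expression per probe set as deposited by the authors. The submitters' processing notes name RMA and Partek. Their versions, any filters and the genome build were not given in the sources used here. Of 41345 probe sets, 23521 have 1 gene symbol in the platform annotation, 1814 several and 16010 none. The brightest probe set stood for each of 22180 genes, of which 1082 had more than 1. Group means of all 5 groups were fitted with limma 3.58.1 (lmFit, eBayes, R 4.3.3) without a covariate, and p-values were adjusted by Benjamini-Hochberg over all genes, with calls under 0.05 and large changes at 2-fold or more. The script was tested on simulated data. Named genes were the 15 largest rises and falls, the 10 largest differences between siRNAs each way, the largest changes in each hypoxia class and members of 39 lists. Members, lists and motifs were chosen with earlier results of these data known. No covariate or batch was available in the labels used here. Replicate numbers did not pair the arrays: correlations of same-numbered deviations were -0.115, -0.023 and -0.173. Promoter sequences are RefSeq windows (GRCm38.p6) for 16990 genes. Alternatives were quantile normalization, median centring, filters on dim genes, mean of probe sets, a trended robust fit, a replicate block, the compared groups alone, each array left out and the hypoxia control as control.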

Additional observations from a re-analysis of the deposited data

How the results depend on the processing

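Hif1a kept its direction and call under the other settings tried for it, at -2.04 to -1.94, or -1.0 with the mean of probe sets. Leaving out each array in turn gave 3979 to 4262 genes higher and 2934 to 3143 lower, with 240 to 304 rises and 236 to 260 falls of 2-fold or more, and -2.04 to -1.95 for Hif1a. It gave 2670 to 2947 genes above and 2532 to 2813 below Si6, 107 to 115 genes raised by hypoxia and lower, and 13 to 18 lowered by hypoxia and higher. Quantile normalization gave 227 rises and 285 falls of 2-fold or more, and median centring put 2474 genes above and 3359 below Si6. The replicate block gave 4387 genes higher and 3182 lower, with 282 and 237 past 2-fold. With the hypoxia control in place of NC, 539 rises and 362 falls reached 2-fold. The cause was not tested. In that setting the sign turned for Cenpf (0.14), Ifi204 (0.41), Irf4 (-0.64), Kif20a (0.06), Kit (-0.87), Kitl (1.16), Mlana (-0.81), Pdk4 (0.38), Pmel (-0.60), Slc45a2 (-0.51), Tnnt2 (0.82) and Tppp3 (0.35). This setting was not run for the hypoxia classes, which would then share arrays. Dim genes, 3 arrays a group and a single line limit precision: the median standard error was 0.076, and a second probe set disagreed for Hif1a, Pdk1, Car9, Plekha2, Slc7a11 and Rrm2.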

Other observations

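Probe sets that carry no gene symbol or several were fitted in the same way and are not named here. Of 17824, 1039 were higher in Si1 and 1748 lower than NC. Past 2-fold there were 69 rises and 93 falls.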
